A study of Homo sapiens with 12 samples.

Results

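Ironomycin was added to ibrutinib in JEKO1, JVM2 and MAVER1, which are established lines of mantle cell lymphoma (MCL), a B-cell cancer of the lymph node mantle. The comparison concerns 6 of the 12 RNA-seq libraries of the study: the 3 libraries that received both drugs were set against the 3 that received ibrutinib alone, each pair from the same line. The model was fitted to all 12 libraries, which share 1 estimate of the spread. All genes left by a filter on low counts entered it, 18674 of the 63677 in the deposited table. Ironomycin, which is derived from salinomycin and holds iron back inside the lysosome, was given at 50 nM to JEKO1 and at 250 nM to JVM2 and MAVER1. Ibrutinib, an inhibitor of the kinase BTK, was given at 0.5 μM to JEKO1, 1.5 μM to JVM2 and 6.25 μM to MAVER1, so both groups of the comparison carried it at the same dose within a line, and treatment lasted 48 h. The dose and the cell line varied together and cannot be told apart. Each line gave 1 library per treatment, so the 3 lines are the replicates (n = 3) and no line was repeated.

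Cells answer the accumulation of unfolded protein in the endoplasmic reticulum (ER) with the unfolded protein response (UPR), which is signalled by the membrane sensors IRE1, PERK and ATF6. IRE1 splices the XBP1 transcript, PERK slows translation and raises the factor ATF4 and its target CHOP, and ATF6 is cut into a factor that raises ER chaperones. Iron is a cofactor of mitochondrial respiration and DNA synthesis, and BTK carries signals from the B-cell receptor (BCR), on which many MCL cells depend.

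In what follows, levels are given as CPM, the reads of a gene scaled to library size after TMM normalization, always in the order JEKO1, JVM2, MAVER1. Changes are log2 fold changes of both drugs over ibrutinib with the standard error (SE) from edgeR's quasi-likelihood fit. The words upregulated and downregulated refer to an adjusted p under 0.05, and a gene was called when its log2 fold change was also at least 1 in size. The libraries held 38013076 to 38613663 counted reads with ibrutinib and 35448523 to 38120929 with both drugs. The B-cell gene MS4A1 had 9734 to 21261 reads in the 6 libraries, whereas 9 markers of T and NK cells summed to 0.881 to 10.5 CPM of all reads with ibrutinib and 1.21 to 8.0 with both drugs, 10 of monocytes to 1.39 to 12.5 and 1.07 to 13.5, and 10 of fibroblasts and epithelium to 5.84 to 35.9 and 8.72 to 57.6. In JVM2 the MCL marker SOX11 had 0 reads, CD5 had 1 or 2, and CCND1 had 8025 to 10779 against 92232 to 182992 in the other lines. The share of reads on the mitochondrial genome was lower in each line when ironomycin was added, in JEKO1 at 0.883% after 2.03%, in MAVER1 at 1.21% after 1.76% and in JVM2 at 1.89% after 2.17%.

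Ironomycin on top of ibrutinib changed expression mainly upward. Of the 18674 genes tested 870 were called (4.66%), 731 of them upregulated (3.91%) and 139 downregulated (0.744%). A fit to the 6 compared libraries only called 161 (138 upregulated and 23 downregulated). At the adjusted p alone, 2212 genes (11.8%) were upregulated and 2147 (11.5%) downregulated, so the excess of rises lay among changes of at least 2-fold. The number of calls depended on JEKO1 and MAVER1: leaving out JVM2 gave 1439 calls, leaving out MAVER1 gave 6, and leaving out JEKO1 gave 1, which was ABCG1. Of 75 called genes among the 115 named by rule, 74 lost their call without JEKO1, 73 without MAVER1, 5 without JVM2 and 45 in the fit to 6 libraries. Their fold changes were less affected: 60 of the 75 kept their direction and stayed past the fold minimum without JEKO1, 56 without MAVER1, 73 without JVM2 and 74 in the fit to 6 libraries. Many calls were in genes of low expression, and 272 of the 870 had a mean of at least 1 log2 CPM (231 upregulated and 41 downregulated). With at least 20 reads over the pair in every line there were 475 called genes, of which 462 had the same sign in all lines.

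In single lines, where there is 1 library per treatment and no replicate check, a log2 ratio of at least 1 in size was reached by 2115 genes upward (11.3%) and 663 downward (3.55%) in JEKO1, by 1506 (8.06%) and 742 (3.97%) in MAVER1, and by 714 (3.82%) and 310 (1.66%) in JVM2. Among genes with at least 20 reads over the pair the upward and downward counts were 376 (2.37%) and 140 (0.883%) in JVM2. In MAVER1 they were 1173 (7.54%) and 426 (2.74%), and JEKO1 had 1832 (11.0%) and 565 (3.39%). JVM2 thus had the fewest changes of this size in both directions. Its ratio was the smallest in size of the lines in 367 of the 475 called genes with enough reads, and the median log2 ratio of the upregulated ones was 1.53 (JEKO1), 0.68 (JVM2) and 1.43 (MAVER1). Over 10911 genes with at least 100 reads in every pair the log2 ratios of JEKO1 and MAVER1 correlated at 0.727, against 0.521 for JEKO1 and JVM2 and 0.541 for JVM2 and MAVER1. These are correlations across genes that share libraries, and genes are not independent replicates.

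The largest rises with the same sign in all lines included stress-linked secreted factors, a surface receptor and a secretory granule gene. GDF15, a stress-induced cytokine, was measured at 0, 4.59 and 0.135 CPM with ibrutinib and 5.58, 16.9 and 7.65 CPM with both drugs (log2 fold change 4.03 ± 0.79 (SE), adjusted p = 0.00828). JEKO1 had no GDF15 read with ibrutinib alone, and every library with both drugs lay above all the ibrutinib libraries. ADGRG1, an adhesion G protein-coupled receptor, had 4.95, 1.29 and 0.323 CPM with ibrutinib and 79.9, 4.34 and 14.7 CPM with both drugs (3.75 ± 0.65 (SE), adjusted p = 0.00606). HID1, which acts in the formation of dense core secretory granules, had 2.29, 1.09 and 2.18 CPM with ibrutinib and 50.3, 1.70 and 90.5 CPM with both drugs (4.06 ± 0.80 (SE), adjusted p = 0.00832), with a JVM2 ratio of 0.61 on the log2 scale. CSF1, the growth factor of macrophages, had 5.66, 27.6 and 3.42 CPM with ibrutinib and 144, 35.9 and 24.9 CPM with both drugs (2.73 ± 0.69 (SE), adjusted p = 0.0192), and the JVM2 library with ibrutinib was above the MAVER1 library with both drugs. In the fit to 6 libraries the adjusted p was 0.0523 for GDF15, 0.0511 for HID1 and 0.0732 for CSF1. Other large rises were those of the long non-coding RNA L3MBTL2-AS1 (4.22), the ATP-gated channel P2RX1 (3.11), the chloride channel BEST1 (2.92), the phosphate transporter SLC34A3 (2.75) and the long non-coding RNA PRADX (2.56). In JVM2 P2RX1 went from 19 to 23 reads and PRADX from 8 to 16, so their rise there is uncertain. Their adjusted p in the fit to 6 libraries was 0.0507 for P2RX1 and 0.0511 for PRADX. L3MBTL2-AS1 is an antisense RNA, and since the counting is not stated to use strand its reads and those of the overlapping gene cannot be told apart.

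PDIA2, a protein disulfide isomerase of the ER, had the smallest adjusted p among the genes named here. It was measured at 9.80, 0.0280 and 0.215 CPM with ibrutinib and 411, 0.0808 and 10.4 CPM with both drugs (5.40 ± 0.19 (SE), adjusted p = 3.41e-07). Its log2 ratios were nearly equal in JEKO1 (5.38) and MAVER1 (5.28), while JVM2 had 4 reads over the pair and so carries no information on it. It remained called without MAVER1 (5.34, adjusted p = 0.00469), and without JEKO1 its log2 fold change was 5.32 with an adjusted p of 0.0656. SYTL1, a synaptotagmin-like protein of vesicle traffic, rose in every line, with 40.0, 0.420 and 65.8 CPM with ibrutinib and 290.5, 2.18 and 334 CPM with both drugs (2.52 ± 0.20 (SE), adjusted p = 0.000902).

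Among genes with at least 20 reads over each pair, the largest falls with the same sign in all lines were those of ABCG1, a sterol exporter described with its pathway below, and of NAPSB, an aspartic protease pseudogene. NAPSB was measured at 61.3, 68.5 and 19.0 CPM with ibrutinib and 17.9, 32.4 and 2.24 CPM with both drugs (-1.75 ± 0.46 (SE), adjusted p = 0.0214), lower in each line. As a transcribed pseudogene it may share reads with its parent gene. Transcripts of the mitochondrial genome, the histone H2AC20 and the lymphocyte adaptors STAP1 and GRAP2 made up most of the rest, and LOXL1-AS1, another antisense RNA, fell by 1.27 ± 0.36 on the log2 scale.

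**Figure D1:**
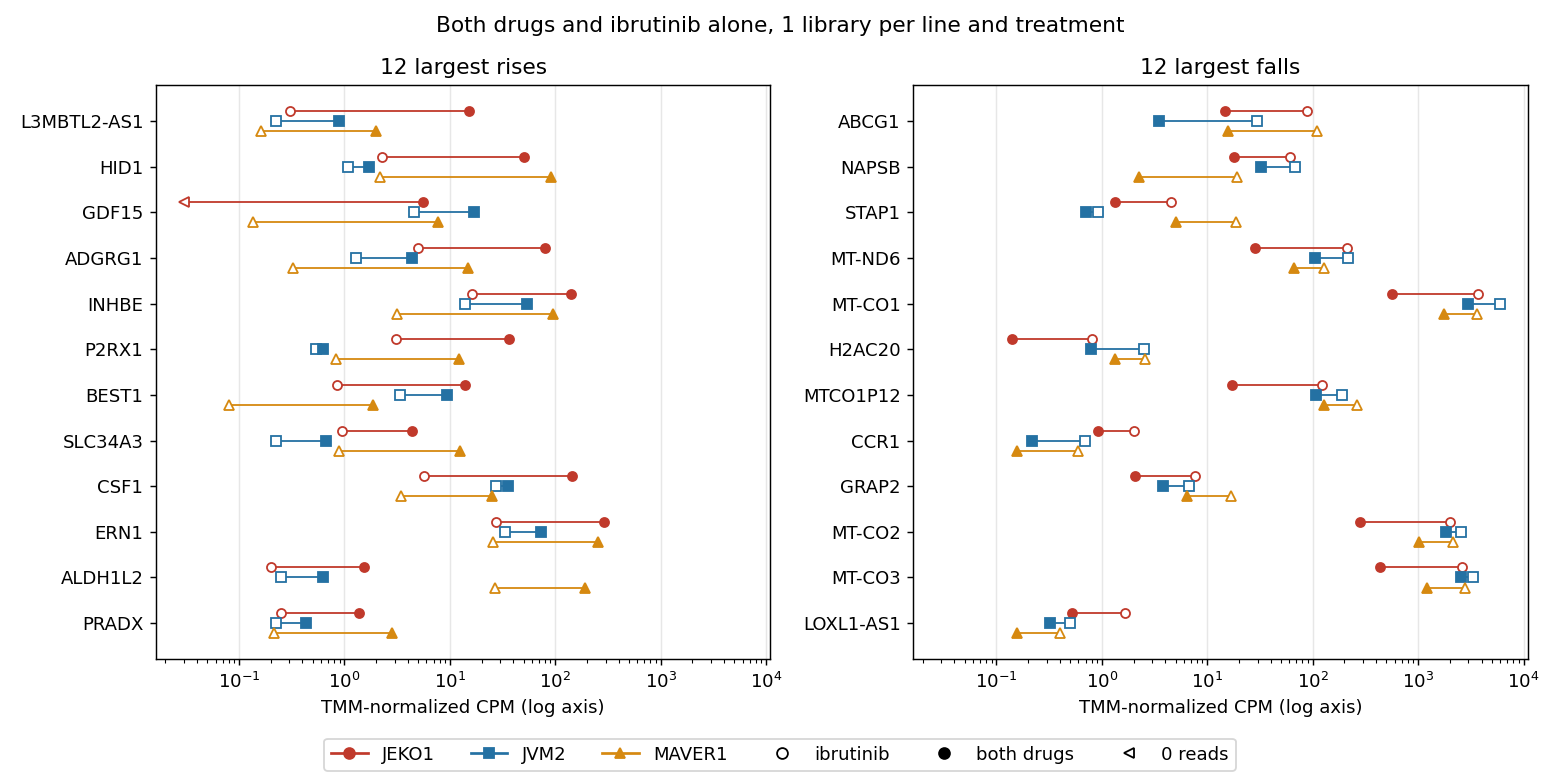
Normalized CPM (log axis) of the 12 largest rises and 12 largest falls that had at least 20 reads per pair and 1 sign in all lines; open symbols are ibrutinib, filled symbols both drugs, and each line joins the pair of a cell line, and a left-pointing triangle marks a library with no reads. The JVM2 pair (squares) is the shortest in HID1, P2RX1 and CSF1, while in ABCG1 all 3 lines moved by a like amount.

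Every tested gene of the PERK, ATF4 and CHOP branch of the UPR was upregulated when ironomycin was added to ibrutinib. Of 19 members tested, 13 were called and the other 6 passed the adjusted p alone, with a median log2 fold change of 1.34 beside 0.05 over all genes tested, of which 3.91% were called upregulated and 11.8% passed the adjusted p upward. INHBE, an activin subunit induced by this branch, was measured at 16.4, 13.8 and 3.15 CPM with ibrutinib and 142, 53.6 and 95.0 CPM with both drugs (3.38 ± 0.73 (SE), adjusted p = 0.0109). DDIT3, which encodes CHOP, had 21.0, 9.65 and 13.3 CPM with ibrutinib and 143, 20.3 and 51.2 CPM with both drugs (2.0 ± 0.32 (SE), adjusted p = 0.00556). In both genes each line rose and JVM2 had the lowest level with both drugs. TRIB3, a pseudokinase induced by CHOP, rose by 2.05 ± 0.54, PPP1R15A, which brings translation back, by 1.84 ± 0.28, and the ER-phagy receptor CCPG1 by 2.15 ± 0.42. CHAC1, a glutathione-degrading enzyme, had its largest ratio in MAVER1, with log2 ratios of 0.63 (JEKO1), 1.04 (JVM2) and 2.82 (MAVER1) (1.46 ± 0.46 (SE), adjusted p = 0.0428). The pro-apoptotic BBC3 (0.93 ± 0.21 (SE), adjusted p = 0.0131) and the death receptor TNFRSF10B (0.84 ± 0.12 (SE), adjusted p = 0.00406) were upregulated below the 2-fold minimum, as was ATF4 itself (0.45 ± 0.13 (SE), adjusted p = 0.0329). The branch had a median log2 ratio of 1.67 (JEKO1), 0.85 (JVM2) and 1.58 (MAVER1). For 14 of the 19 genes the ironomycin effect differed between lines, beside 13.3% of all genes tested. Leaving out a line gave medians of 1.21 (JEKO1), 1.59 (JVM2) and 1.26 (MAVER1). STC2, another member, had 9 reads over the pair in MAVER1.

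The IRE1 branch and the machinery of ER-associated degradation (ERAD), which returns misfolded proteins to the cytosol, were upregulated in part. Of 22 members tested 15 were upregulated (5 of them called), 1 was downregulated and 6 did not pass the test, with a median of 0.60. Over all genes tested 11.8% were upregulated and 3.91% called so. ERN1, the gene of IRE1, had 27.7, 33.3 and 25.6 CPM with ibrutinib and 287, 73.8 and 254 CPM with both drugs (2.70 ± 0.47 (SE), adjusted p = 0.0061). JEKO1 and MAVER1 rose by nearly the same amount (log2 ratios 3.37 and 3.31), above JVM2 (1.14). The ERAD genes DERL3 (1.70 ± 0.30 (SE), adjusted p = 0.0061), SEL1L (1.45 ± 0.28 (SE), adjusted p = 0.00816) and HERPUD1 (1.12 ± 0.17 (SE), adjusted p = 0.00491) and the cochaperone DNAJB9 (1.37 ± 0.29 (SE), adjusted p = 0.0106) were the other called members. XBP1, the target of IRE1 splicing, was measured at 41.8, 275 and 467 CPM with ibrutinib and 125, 239 and 539.6 CPM with both drugs (0.54 ± 0.33 (SE), adjusted p = 0.258). It did not pass the test. Its log2 ratio was 1.58 (JEKO1), -0.21 (JVM2) and 0.21 (MAVER1), and the ironomycin effect on it differed between lines (edgeR, adjusted p = 4.44e-05). These counts do not separate spliced from unspliced XBP1.

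Of the 23 ATF6 and ER folding genes tested 12 were upregulated, 5 of them called, and 11 did not pass the test, with a median of 0.58. The shares over all genes tested were 11.8% upregulated and 3.91% called so. HSPA5, the main ER chaperone BiP, had 502, 722 and 476 CPM with ibrutinib and 1019, 789 and 878 CPM with both drugs (0.69 ± 0.17 (SE), adjusted p = 0.0196), with log2 ratios of 1.02 (JEKO1), 0.13 (JVM2) and 0.88 (MAVER1). The oxidase ERO1B was measured at 3.14, 9.76 and 2.45 CPM with ibrutinib and 12.6, 11.5 and 8.71 CPM with both drugs (1.40 ± 0.35 (SE), adjusted p = 0.0175), CRELD2, an ER-resident secreted factor, at 20.5, 59.1 and 86.0 CPM with ibrutinib and 66.5, 66.8 and 205 CPM with both drugs (1.05 ± 0.23 (SE), adjusted p = 0.0113), and the calcium regulator WFS1 rose by 1.15 ± 0.30. In JVM2 the median of these genes was 0.13, against 1.04 in JEKO1 and 0.64 in MAVER1. Leaving out a line gave fitted medians of 0.38 (JEKO1), 0.83 (JVM2) and 0.57 (MAVER1). For 17 of the 23 genes the ironomycin effect differed between lines, beside 13.3% of all genes tested. ATF6 itself had 0.22 ± 0.08 (SE), adjusted p = 0.0686, which did not pass the test. In all 3 branches together JVM2 had the smallest ratio in most members: 17 of 19, 22 of 22 and 20 of 23, where it was the smallest in 9896 of all 18674 genes. Plasma cells, which secrete antibody, express this machinery strongly, and the summed level of 7 plasma cell markers was 359, 761 and 719.6 CPM of all reads with ibrutinib and 725, 641 and 1114 with both drugs, with none of the 7 at 0. Over the lines 3 of the 7 fitted changes were positive, their median was -0.01 and none passed the test. The median log2 ratio was 0.50 (JEKO1), -0.28 (JVM2) and 0.53 (MAVER1), with 4, 0 and 4 positive ratios. For 6 of the 7 the ironomycin effect differed between lines. MZB1 had 0.72 ± 0.26 (SE), adjusted p = 0.064 and PRDM1 0.76 ± 0.31 (SE), adjusted p = 0.102. TNFRSF17 went from 271 to 1600 reads in JEKO1, 2478 to 1988 in JVM2 and 1278 to 3449 in MAVER1. JCHAIN went from 4084 to 4338 reads in JEKO1, 6093 to 2386 in JVM2 and 8785 to 8301 in MAVER1. The part of these markers in the UPR result was not tested.

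The ER stress response element, CCAAT and CCACG with 9 bases between them, searched on both strands, was found in the RefSeq promoters (GRCh38.p14, 250 bases before to 50 after the start) of 7 of 21 ATF6 and ER folding genes (33.3%), against 0.0769% of all 35116 promoters and 0.141% of the 12095 tested genes with one. Of the genes called upregulated 3 of 361 held it (0.831%). The promoters of HSPA5 (chr9:125241294-125241593, minus strand) and CRELD2 (chr22:49918384-49918683, plus strand), which the results above turn on, are shown 5′ to 3′ with the match in capitals. It starts 66 bases before the HSPA5 start, and 80 bases before that of CRELD2 on the other strand.
HSPA5: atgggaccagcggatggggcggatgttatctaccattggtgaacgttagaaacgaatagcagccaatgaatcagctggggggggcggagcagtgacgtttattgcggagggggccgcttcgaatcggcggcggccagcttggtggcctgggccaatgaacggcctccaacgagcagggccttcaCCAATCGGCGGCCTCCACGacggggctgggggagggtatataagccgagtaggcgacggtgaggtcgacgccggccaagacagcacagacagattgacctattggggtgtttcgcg
CRELD2: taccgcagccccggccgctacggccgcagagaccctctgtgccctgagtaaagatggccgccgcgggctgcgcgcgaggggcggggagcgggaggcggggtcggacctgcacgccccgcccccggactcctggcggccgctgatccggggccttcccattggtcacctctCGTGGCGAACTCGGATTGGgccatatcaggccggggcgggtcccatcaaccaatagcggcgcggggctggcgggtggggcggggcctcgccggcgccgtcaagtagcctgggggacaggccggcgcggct
The shorter element TTGCATCA, bound by ATF4 with C/EBP proteins, was in 2 of 17 PERK branch promoters (11.8%), those of CHAC1 and CEBPG, against 0.866% of all. The CHAC1 promoter (chr15:40953221-40953520, plus strand) holds it 209 bases before the start, in capitals.
CHAC1: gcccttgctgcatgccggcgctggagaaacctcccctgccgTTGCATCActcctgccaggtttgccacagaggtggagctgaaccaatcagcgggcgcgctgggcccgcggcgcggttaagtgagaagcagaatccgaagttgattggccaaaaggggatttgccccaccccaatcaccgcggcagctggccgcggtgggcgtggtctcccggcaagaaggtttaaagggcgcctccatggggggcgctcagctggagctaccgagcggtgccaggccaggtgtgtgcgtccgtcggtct
These matches are letters in a window, and binding was not measured.

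Genes of ER to Golgi transport were upregulated in part, with smaller changes. Of 28 tested 17 rose (4 called), where 11.8% of all genes tested did, and 1, TRAPPC3, fell. The median was 0.39, and 0.59, 0.31 and 0.57 in JEKO1, JVM2 and MAVER1. SEC24D, a cargo adaptor of the COPII coat, had 20.8, 92.5 and 47.1 CPM with ibrutinib and 105, 139 and 233 CPM with both drugs (1.78 ± 0.35 (SE), adjusted p = 0.00828), and the coat gene SEC31A moved by nearly the same ratio in every line (0.65, 0.60 and 0.73; 0.66 ± 0.07 (SE), adjusted p = 0.00224). KDELR3, a receptor that returns ER proteins, rose by 2.50 ± 0.38, but had 19 reads over the pair in JEKO1 and 31 in MAVER1. The unfolded protein response element TGACGTGG was in 6 of 26 promoters of this list (23.1%) and in 0.729% of all promoters. It was in 1.18% of promoters of tested genes and in 3 of 21 ATF6 and ER folding promoters (14.3%). Among IRE1 and ERAD promoters 0 of 19 held it, and among PERK branch promoters 0 of 17. For N-linked glycosylation the median was 0.07, with 8 of 28 upregulated and 1 downregulated. The upregulated ones included PGM3 (1.15 ± 0.19 (SE), adjusted p = 0.00567), UAP1 (0.62 ± 0.11 (SE), adjusted p = 0.00618) and GFPT1 (0.85 ± 0.18 (SE), adjusted p = 0.0104) of hexosamine synthesis, which supplies the sugar donor.

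Some genes of autophagy and of the lysosome, which degrade cell components, were upregulated. Of 30 ER-phagy and autophagy genes 9 were upregulated and 1 downregulated (median 0.16), so 33.3% passed the test in either direction beside 23.3% of all genes. WIPI1, which binds forming autophagosomes, had 3.39, 29.7 and 3.34 CPM with ibrutinib and 19.9, 42.2 and 20.6 CPM with both drugs (1.89 ± 0.39 (SE), adjusted p = 0.00984), and CALCOCO1, an ER-phagy receptor, had 23.7, 51.6 and 21.7 CPM with ibrutinib and 43.7, 67.8 and 106 CPM with both drugs (1.24 ± 0.32 (SE), adjusted p = 0.0197). Of 37 lysosomal genes 11 rose and 2 fell (median 0.16, 35.1% past the test). The sialidase NEU1 was measured at 31.3, 26.6 and 16.8 CPM with ibrutinib and 51.6, 43.1 and 53.9 CPM with both drugs (1.06 ± 0.20 (SE), adjusted p = 0.00739), and its log2 ratio in MAVER1 (1.68) was above those of JEKO1 (0.72) and JVM2 (0.70). The cathepsin CTSD (0.84 ± 0.22) and the cholesterol carrier NPC2 (0.94 ± 0.26) were also upregulated, with their largest ratios in MAVER1.

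Among amino acid genes, the transporters SLC6A9 for glycine and SLC7A11 for cystine were called. SLC6A9 had 5.25, 8.17 and 19.8 CPM with ibrutinib and 34.2, 20.0 and 82.0 CPM with both drugs (2.11 ± 0.43 (SE), adjusted p = 0.00959) and SLC7A11 had 6.36, 10.3 and 10.9 CPM with ibrutinib and 29.5, 17.0 and 45.0 CPM with both drugs (1.70 ± 0.30 (SE), adjusted p = 0.00661), and both rose in each line. Of 16 transporters 5 rose and 1 fell (37.5% past the test, beside 23.3% of all genes). Of 17 genes of serine, one-carbon, asparagine and proline synthesis 3 rose and 2 fell (29.4% past the test, near the 23.3% of all genes). The largest changes were those of ALDH1L2, a mitochondrial folate enzyme (2.61 ± 0.43 (SE), adjusted p = 0.0056), and ASS1, which makes argininosuccinate (1.98 ± 0.52 (SE), adjusted p = 0.022). ALDH1L2 was at 0.201 and 0.252 CPM in JEKO1 and JVM2 with ibrutinib and at 26.9 CPM in MAVER1. Of 19 tRNA synthetases, which load tRNAs with amino acids, 1 rose (AARS1, 0.57) and 4 fell, so 26.3% passed the test, also near all genes. Among those that fell was VARS1 (-0.61 ± 0.12 (SE), adjusted p = 0.00782), whereas WARS1, counted in the PERK list, rose by 1.59 ± 0.29.

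Most genes of cholesterol and fatty acid synthesis were upregulated, with like medians in the lines. Of 31 genes tested 19 were upregulated and 1 was downregulated, with a median of 0.41 and line medians of 0.45, 0.37 and 0.43, beside 11.8% upregulated over all genes. Single members still differed: the ironomycin effect varied between lines for 8 of the 31, beside 13.3% of all genes tested. HMGCS1, an early enzyme of the cholesterol pathway, had 109, 115 and 49.2 CPM with ibrutinib and 217, 172 and 138 CPM with both drugs (1.02 ± 0.18 (SE), adjusted p = 0.00609). Its log2 ratios were 0.99, 0.58 and 1.49, and the ironomycin effect on it differed between lines (edgeR, adjusted p = 0.0014). SQLE, the squalene epoxidase, moved by 0.58, 0.61 and 0.69 in the lines (0.63 ± 0.07 (SE), adjusted p = 0.00237). SREBF1, a factor of fatty acid synthesis and a target of the oxysterol receptor LXR, was the member that fell, with 74.2, 210.5 and 117 CPM with ibrutinib and 42.3, 82.7 and 60.5 CPM with both drugs (-1.04 ± 0.18 (SE), adjusted p = 0.0061). The sterol regulatory element TCACNCCAC, with N any base, was in 1 of 24 promoters of this list (4.17%). It was in 1.13% of all promoters and 1.54% of those of tested genes.

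LXR targets were downregulated in part. Of 12 tested 5 were downregulated (3 called) and 0 upregulated, where 11.5% of all genes tested were downregulated and 0.744% called so. ABCG1, a sterol exporter, had 87.8, 29.7 and 110.5 CPM with ibrutinib and 14.6, 3.48 and 15.6 CPM with both drugs (-2.82 ± 0.27 (SE), adjusted p = 0.00155). All libraries with both drugs were below all ibrutinib libraries, the log2 ratios were -2.59, -3.07 and -2.82, and ABCG1 was the gene still called without JEKO1 (-2.93, adjusted p = 0.0186). ABCA1, another sterol exporter, had 61.3, 0.727 and 56.6 CPM with ibrutinib and 29.9, 1.05 and 12.1 CPM with both drugs (-1.30 ± 0.34 (SE), adjusted p = 0.0217) and was near 1 CPM in JVM2. MYLIP, which degrades the LDL receptor, fell by 0.77 ± 0.12 on the log2 scale.

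Transcripts of the mitochondrial genome fell most in JEKO1. Of the 13 protein-coding ones 4 were downregulated, where 11.5% of all genes tested were. All 4 were called, and 9 of the 13 did not pass the test, with a median of -0.93. The median log2 ratio was -2.47 (JEKO1), -0.31 (JVM2) and -0.43 (MAVER1), and without JEKO1 the fitted median was -0.37. MT-CO1, a subunit of cytochrome c oxidase, had 3737, 5967 and 3594 CPM with ibrutinib and 564, 2995 and 1757 CPM with both drugs (-1.50 ± 0.31 (SE), adjusted p = 0.00996). MT-ND6, a complex I subunit, had 211, 216 and 127 CPM with ibrutinib and 28.1, 105 and 66.5 CPM with both drugs (-1.53 ± 0.33 (SE), adjusted p = 0.0112). In the fit to 6 libraries MT-CO1 had an adjusted p of 0.0534. MT-CO2 (-1.34 ± 0.37) and MT-CO3 (-1.27 ± 0.35) were the others. Both MT-CO1 and MT-ND6 fell in each line, by more in JEKO1 than elsewhere, whereas MT-ND2 had ratios of -0.47, 1.33 and 0.58 and did not pass the test. MTCO1P12 (-1.45 ± 0.34) is a nuclear pseudogene that shares sequence with MT-CO1, so its reads are uncertain. The nuclear-encoded respiratory chain was also lower: 36 of 50 genes were downregulated, beside 11.5% of all genes tested. None was upregulated or reached the 2-fold minimum, and the median was -0.46. ATP5MC3, a subunit of ATP synthase, had 262, 302 and 124 CPM with ibrutinib and 125, 242 and 72.6 CPM with both drugs (-0.71 ± 0.13 (SE), adjusted p = 0.00724).

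Most mitosis and DNA replication genes were downregulated, nearly all of them by less than 2-fold. Of 42 mitosis and spindle genes 39 were downregulated, 0 upregulated, and 2 called, with a median of -0.62, where 11.5% of all genes tested were downregulated. PLK1, a mitotic kinase, had 356, 252 and 250.2 CPM with ibrutinib and 147, 159 and 90.1 CPM with both drugs (-1.13 ± 0.15 (SE), adjusted p = 0.00406), and cyclin B1 (CCNB1) had 252, 185 and 215 CPM with ibrutinib and 99.9, 119 and 90.6 CPM with both drugs (-1.07 ± 0.14 (SE), adjusted p = 0.00402). Every line fell in both genes, and JVM2 fell least. Of 44 genes of DNA replication and nucleotide supply 34 were downregulated and 0 upregulated (median -0.51), with TIPIN, which stabilizes replication forks, at 22.6, 22.6 and 35.9 CPM with ibrutinib and 11.6, 13.8 and 21.7 CPM with both drugs (-0.80 ± 0.12 (SE), adjusted p = 0.00441) and MCM5, a helicase subunit, at 419, 625 and 673 CPM with ibrutinib and 239.8, 465 and 421 CPM with both drugs (-0.63 ± 0.10 (SE), adjusted p = 0.00518). RRM2, the iron-dependent small subunit of ribonucleotide reductase, fell by 0.86 ± 0.15. In bulk RNA, fewer dividing cells and less of these transcripts per cell cannot be told apart. Ribosome biogenesis and MYC targets fell in 25 of 35 (median -0.43), including the polyamine enzyme ODC1 (-0.68 ± 0.11 (SE), adjusted p = 0.00556) and the ribosome assembly gene RRS1 (-0.57 ± 0.09 (SE), adjusted p = 0.00499). Homologous recombination, Fanconi and damage checkpoint genes had a smaller median (-0.19), with 6 of 31 downregulated and 1, ATM, upregulated (0.57 ± 0.12). Together 22.6% of them passed the test, beside 23.3% of all genes. H2AX, the histone variant that marks DNA breaks when phosphorylated, fell by 0.75 ± 0.11.

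The 6-letter cell cycle homology region TTTGAA was in the promoters of 26 of 35 mitosis genes (74.3%), against 15.2% of all promoters and 13.9% of those of tested genes, and E2F elements (TTTGGCGC, TTTCGCGC or TTTCCCGC) were in 22 of 38 DNA replication genes (57.9%), against 2.74% and 5.29%. Both strands were searched. Of the genes called downregulated, 18 of 80 held the homology region (22.5%) and 3 of 80 an E2F element (3.75%). The promoters of PLK1 (chr16:23678639-23678938, plus strand) and TIPIN (chr15:66356636-66356935, minus strand) are shown with their matches in capitals. That of PLK1 starts 29 bases before the start, and the 2 of TIPIN, which overlap on opposite strands, begin 66 and 62 bases before it.
PLK1: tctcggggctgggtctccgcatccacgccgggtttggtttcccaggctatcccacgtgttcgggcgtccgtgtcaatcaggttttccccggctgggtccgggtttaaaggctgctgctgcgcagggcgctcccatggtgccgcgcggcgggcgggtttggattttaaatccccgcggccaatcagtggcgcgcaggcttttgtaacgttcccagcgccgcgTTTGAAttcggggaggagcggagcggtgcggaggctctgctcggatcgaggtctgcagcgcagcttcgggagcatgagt
TIPIN: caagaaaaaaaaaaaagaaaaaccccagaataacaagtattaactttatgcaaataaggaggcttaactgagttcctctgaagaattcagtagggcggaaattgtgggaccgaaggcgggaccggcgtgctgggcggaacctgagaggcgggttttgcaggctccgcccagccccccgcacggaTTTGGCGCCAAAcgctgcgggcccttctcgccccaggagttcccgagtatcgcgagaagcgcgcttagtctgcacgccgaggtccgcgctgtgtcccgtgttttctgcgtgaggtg

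Heat shock proteins, which fold proteins outside the ER, were downregulated in most members. Of 24 cytosolic and mitochondrial heat shock genes 16 were downregulated and 0 upregulated (median -0.59). Over all genes tested 11.5% were downregulated. HSPB1, a small heat shock protein, had 116, 112 and 302 CPM with ibrutinib and 60.6, 79.0 and 95.2 CPM with both drugs (-1.02 ± 0.22 (SE), adjusted p = 0.0116), and HSPA8 (-0.90 ± 0.20) and HSP90AA1 (-0.65 ± 0.13) also fell. Among hypoxia targets and glycolysis genes 5 of 35 rose and 11 fell (45.7% past the test, beside 23.3% of all genes). The lactate dehydrogenase LDHA had 1249, 1203 and 1466 CPM with ibrutinib and 436, 967 and 615 CPM with both drugs (-1.02 ± 0.22 (SE), adjusted p = 0.0108), and the angiogenic factor VEGFA had 39.3, 51.2 and 49.4 CPM with ibrutinib and 129.6, 82.7 and 92.8 CPM with both drugs (1.15 ± 0.24 (SE), adjusted p = 0.00939).

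**Figure D2:**
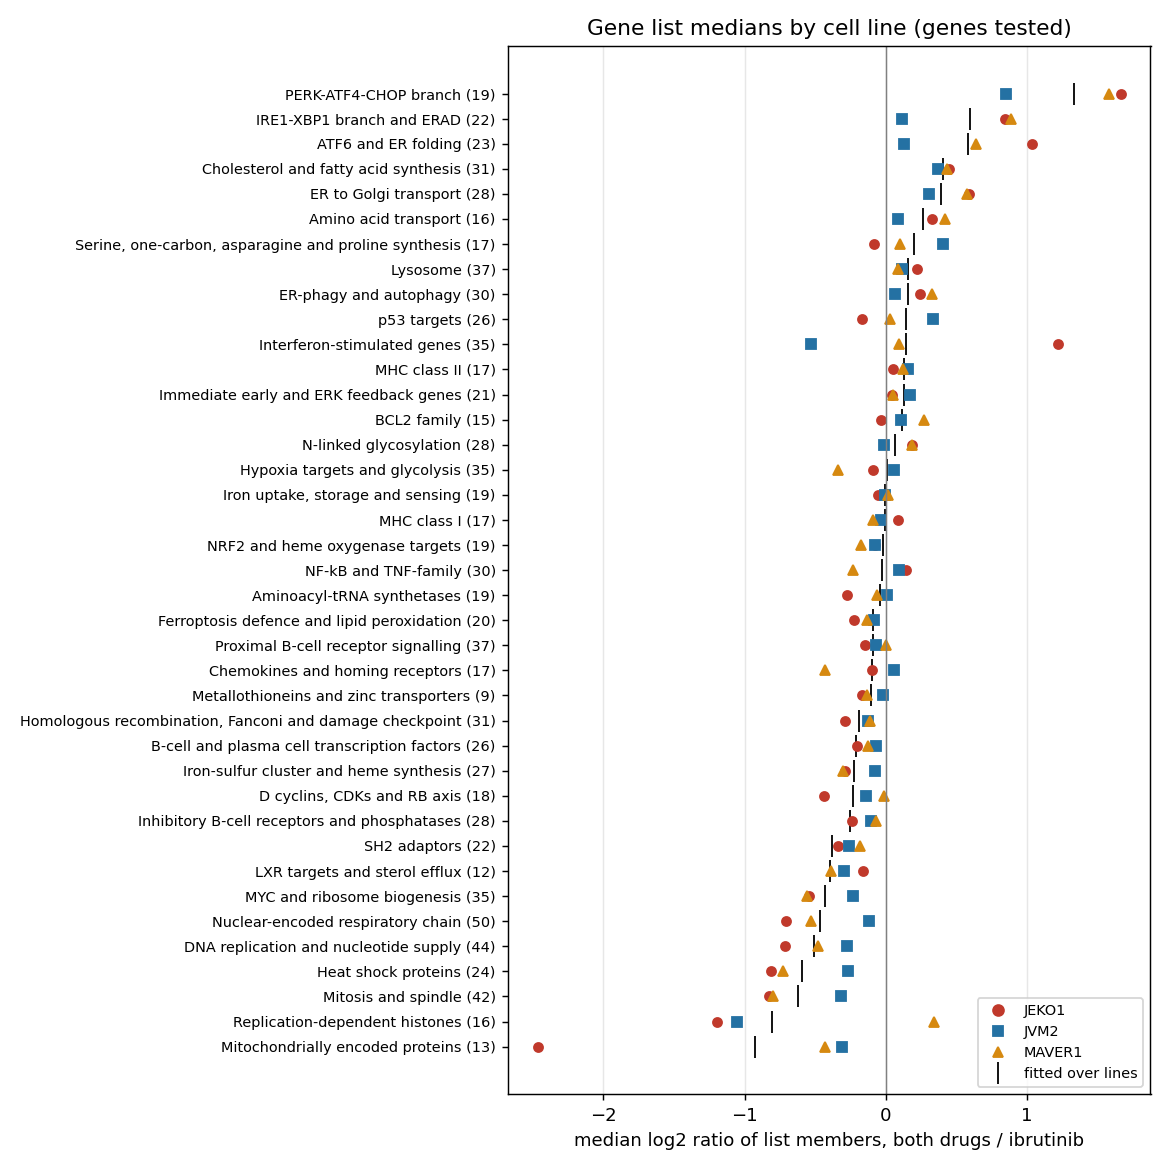
Median log2 ratio of both drugs over ibrutinib in each gene list, with the number of genes tested in parentheses, 1 symbol per cell line and a black bar for the fitted value. UPR lists lie highest and mitochondrial, histone, mitosis and heat shock lists lowest, JVM2 squares lie nearer to 0 in most of these, and the 3 lines spread widest in interferon-stimulated genes, histones and mitochondrially encoded genes.

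Genes of iron handling moved in both directions. Of 19 genes of iron uptake, storage and sensing 3 were upregulated and 4 downregulated, with a median of 0.00, so 36.8% passed the test beside 23.3% of all genes. The ferritin heavy chain FTH1 had 192, 569 and 111 CPM with ibrutinib and 266, 930.1 and 193 CPM with both drugs (0.66 ± 0.10 (SE), adjusted p = 0.00499) and rose in every line, and the light chain FTL rose by 0.35 ± 0.11. The transferrin receptor TFRC had 221, 485 and 265 CPM with ibrutinib and 226, 928 and 401 CPM with both drugs (0.53 ± 0.19 (SE), adjusted p = 0.0691). It did not pass the test over the lines, and the ironomycin effect on it differed between lines (adjusted p = 0.00406), with nearly no change in JEKO1 (0.03) and a log2 ratio of 0.94 in JVM2. HFE, which regulates iron uptake, was the called member and fell by 1.04 ± 0.24. Of 27 iron-sulfur and heme synthesis genes 9 fell and 1 rose (median -0.23, 37.0% past the test), with CIAPIN1, of cytosolic iron-sulfur assembly, at -0.71 ± 0.12 (SE), adjusted p = 0.00588 and the ferredoxin FDX1 at -0.48 ± 0.09 (SE), adjusted p = 0.00666. In the ferroptosis list 6 of 20 fell and 1, SLC7A11, rose (35% past the test), and GPX4, the lipid peroxide reductase, had 129.5, 203 and 98.2 CPM with ibrutinib and 113, 252 and 123 CPM with both drugs (0.15 ± 0.12 (SE), adjusted p = 0.385). In the NRF2 list 2 of 19 rose and 5 fell (36.8% past the test). OSGIN1 was its called member (1.19 ± 0.28 (SE), adjusted p = 0.0144), at most 1.66 CPM in any library. None of 9 metallothionein and zinc transporter genes passed the test.

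Cell death regulators moved in both directions. Of 26 p53 targets 6 rose (23.1%), 3 of them called, and 0 fell. Over all genes 11.8% were upregulated and 3.91% called so, and 23.3% passed the test in either direction. The fitted median was 0.15, and -0.14 without JVM2. The line medians were -0.17 (JEKO1), 0.34 (JVM2) and 0.03 (MAVER1), and 25 of the 26 ratios were positive in JVM2 against 9 in JEKO1. TP53INP1 had 7.14, 14.8 and 73.1 CPM with ibrutinib and 24.2, 23.6 and 237 CPM with both drugs (1.41 ± 0.28 (SE), adjusted p = 0.00885), and the stress sensor SESN2, which is also an ATF4 target in the PERK list, had 33.6, 91.5 and 22.6 CPM with ibrutinib and 94.8, 144 and 77.0 CPM with both drugs (1.34 ± 0.27 (SE), adjusted p = 0.0092). CDKN1A, the CDK inhibitor p21, had 33.2, 431 and 55.8 CPM with ibrutinib and 95.2, 535 and 141 CPM with both drugs (1.06 ± 0.19 (SE), adjusted p = 0.00669). JVM2 held the highest CDKN1A level in both treatments and the smallest ratio. Of 15 BCL2 family genes 5 rose and 2 fell (46.7% past the test). BCL2, which protects from apoptosis, had 75.6, 139.6 and 578 CPM with ibrutinib and 137, 193 and 1193 CPM with both drugs (0.79 ± 0.14 (SE), adjusted p = 0.00692), the effector BAK1 fell by 0.53 ± 0.10, and MCL1 had -0.22 ± 0.09 (SE), adjusted p = 0.117 and did not pass the test.

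The D cyclins did not pass the test over the lines. CCND1, the cyclin that MCL overexpresses, was measured at 3513, 302 and 4619.9 CPM with ibrutinib and 2182, 216 and 4828 CPM with both drugs (-0.36 ± 0.16 (SE), adjusted p = 0.121). Its log2 ratio was -0.69 (JEKO1), -0.48 (JVM2) and 0.06 (MAVER1), and the ironomycin effect differed between lines (adjusted p = 0.0178). CCND2 was at 270 and 251 CPM in JVM2 and under 1 CPM in the other lines. CDK4 fell by 0.38 ± 0.11 (adjusted p = 0.0369), RB1 had -0.37 ± 0.12 (SE), adjusted p = 0.0504, and the inhibitor CDKN1C rose in JEKO1 and MAVER1 (1.28 ± 0.34 (SE), adjusted p = 0.0233).

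Genes of proximal BCR signalling passed the test at about the share of all genes, 21.6% beside 23.3%. Of 37 proximal members 2 rose, 6 fell and none was called, with a median of -0.09. The receptor chain CD79A had 398, 500.1 and 379 CPM with ibrutinib and 237, 417 and 271 CPM with both drugs (-0.49 ± 0.13 (SE), adjusted p = 0.0232), and the calcium channel ITPR1 had 12.4, 166 and 27.7 CPM with ibrutinib and 37.9, 192 and 50.8 CPM with both drugs (0.86 ± 0.23 (SE), adjusted p = 0.0215). Of 28 inhibitory receptors and phosphatases 3 rose and 7 fell (35.7% past the test), with a median of -0.25, and 3 were called downregulated, where 0.744% of all genes were. FCRL1, an Fc receptor-like protein of B cells, had 3.49, 0 and 2.13 CPM with ibrutinib and 0.686, 0 and 0.185 CPM with both drugs (-2.72 ± 0.35 (SE), adjusted p = 0.00393), and FCRL2 had 5.86, 0 and 3.74 CPM with ibrutinib and 1.42, 0.0269 and 0.897 CPM with both drugs (-1.99 ± 0.36 (SE), adjusted p = 0.00692). JVM2 had 0 FCRL1 reads in both libraries and 1 FCRL2 read in all, so both changes come from JEKO1 and MAVER1. PAG1, a membrane adaptor that recruits the kinase CSK, rose (1.15 ± 0.26 (SE), adjusted p = 0.0134). PTPN6, the phosphatase SHP-1, had 67.6, 484 and 53.7 CPM with ibrutinib and 12.6, 387 and 22.9 CPM with both drugs (-1.08 ± 0.47 (SE), adjusted p = 0.117). It was lower with both drugs in each line but did not pass the test, and without JVM2 it was called (-1.73, adjusted p = 0.0243). CD22, an inhibitory lectin, had 22.1, 311 and 49.1 CPM with ibrutinib and 14.3, 353 and 24.7 CPM with both drugs (-0.48 ± 0.30 (SE), adjusted p = 0.271), higher with both drugs in JVM2 and lower in the other lines. SH2 adaptors held 8 downregulated members of 22 and 0 upregulated ones (median -0.38, 36.4% past the test), with 3 called. SLA, which lowers antigen receptor levels, had 10.2, 0 and 4.63 CPM with ibrutinib and 1.11, 0 and 0.739 CPM with both drugs (-2.95 ± 0.23 (SE), adjusted p = 0.00224), with 0 reads in JVM2. GRAP2, an adaptor of lymphocyte signalling, had 7.72, 6.74 and 16.9 CPM with ibrutinib and 2.06, 3.83 and 6.39 CPM with both drugs (-1.36 ± 0.21 (SE), adjusted p = 0.00494), and STAP1, an adaptor of BCR signals, had 4.50, 0.923 and 18.5 CPM with ibrutinib and 1.33, 0.701 and 5.01 CPM with both drugs (-1.55 ± 0.32 (SE), adjusted p = 0.00941). The immunoglobulin genes IGLV1-47 (-1.31 ± 0.30 (SE), adjusted p = 0.0195) and IGLV1-44 (-1.92 ± 0.32 (SE), adjusted p = 0.00565) belong to a family whose near-identical members may have split reads, and JVM2 had at most 1 read of each.

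Downstream of the receptor, the share past the test was 6.67% among NF-kB and TNF-family genes, 14.3% among immediate early genes and 23.5% among chemokine genes, beside 23.3% of all genes. Of 21 immediate early and ERK feedback genes 2 rose, FOSB (1.16 ± 0.32 (SE), adjusted p = 0.0266) and NR4A3 (1.13 ± 0.34 (SE), adjusted p = 0.0354), and 1 fell, DUSP6 (-1.88 ± 0.42 (SE), adjusted p = 0.0127). Of 30 NF-kB and TNF-family genes 1 rose, TNFRSF13C, the BAFF receptor (0.96 ± 0.22), and 1 fell, TNFSF8, which had reads in JEKO1 only. Among 17 chemokine and homing genes 4 fell (2 called) and 0 rose, where 11.5% of all genes were downregulated and 0.744% called so. CCR1, a chemokine receptor, had 2.04, 0.699 and 0.593 CPM with ibrutinib and 0.923, 0.216 and 0.158 CPM with both drugs (-1.44 ± 0.25 (SE), adjusted p = 0.00612), lower in each line. Of 26 B-cell and plasma cell transcription factors 2 rose and 3 fell (19.2% past the test, beside 23.3% of all genes). SOX11, the MCL transcription factor, rose in the lines that express it, with 115, 0 and 60.3 CPM with ibrutinib and 181, 0 and 181 CPM with both drugs (1.12 ± 0.25 (SE), adjusted p = 0.0195). ID3, an inhibitor of E proteins, had 200.1, 43.1 and 413 CPM with ibrutinib and 65.4, 36.1 and 121 CPM with both drugs (-1.25 ± 0.26 (SE), adjusted p = 0.0104), and KLF2, a factor of quiescence and homing, had 22.1, 23.3 and 67.3 CPM with ibrutinib and 8.16, 11.7 and 44.5 CPM with both drugs (-1.01 ± 0.28 (SE), adjusted p = 0.0261).

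Antigen presentation changed by small amounts. Of 17 MHC class II genes 3 rose and 0 fell (17.6% past the test). Of all genes 23.3% passed it, 11.8% upward. The largest class II change was that of HLA-DPB1 (0.42 ± 0.08 (SE), adjusted p = 0.00816). Of 17 MHC class I genes 1 rose and 5 fell (35.3%), the latter including the immunoproteasome subunits PSMB8 (-0.60 ± 0.12 (SE), adjusted p = 0.00926) and PSMB9 (-0.39 ± 0.07 (SE), adjusted p = 0.00714).

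Interferon-stimulated genes differed in direction between lines. Of 35 tested 3 were upregulated and 1, GBP1, was downregulated over the lines (median 0.15). Thus 11.4% passed the test, beside 23.3% of all genes. The median log2 ratio was 1.22 (JEKO1), -0.53 (JVM2) and 0.09 (MAVER1). In JEKO1 32 of the 35 ratios were positive, in JVM2 5 and in MAVER1 20, and the ironomycin effect differed between lines for 29 of the 35, beside 13.3% of all genes tested. STAT2, a factor of the interferon response, had 85.5, 212 and 68.6 CPM with ibrutinib and 298, 226 and 230.3 CPM with both drugs (1.27 ± 0.33 (SE), adjusted p = 0.0213), and its partner IRF9 rose by 0.97 ± 0.31, both with almost no change in JVM2 (0.09 and 0.01). MX1, an antiviral GTPase, had 10.6, 419 and 26.4 CPM with ibrutinib and 23.7, 223 and 12.1 CPM with both drugs (-0.54 ± 0.55 (SE), adjusted p = 0.506), higher with both drugs in JEKO1 and lower in the other lines. OAS1, a sensor enzyme, had 11.8, 81.4 and 6.46 CPM with ibrutinib and 14.7, 56.3 and 46.6 CPM with both drugs (0.89 ± 0.64 (SE), adjusted p = 0.341). Levels with ibrutinib alone were highest in JVM2 for both. Several members were counted at few reads in JEKO1, such as IFIT1 with 37 over the pair, and in MAVER1, such as IFI44L with 12. Without JEKO1 the fitted median was -0.17, and without JVM2 it was 0.71.

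Replication-dependent histone transcripts, which mostly lack poly(A) tails, were lower in JEKO1 and JVM2 and not at the median in MAVER1. Of 16 tested 5 were downregulated and 0 upregulated (31.2% past the test, beside 23.3% of all genes), with a median of -0.80. The line medians were -1.19 (JEKO1), -1.05 (JVM2) and 0.34 (MAVER1). The ironomycin effect differed between lines for 7 of the 16, beside 13.3% of all genes tested. H1-2, a linker histone, had 155, 145 and 9.19 CPM with ibrutinib and 40.4, 32.4 and 11.2 CPM with both drugs (-1.34 ± 0.41 (SE), adjusted p = 0.037), lower in JEKO1 and JVM2 and not in MAVER1, where its level with ibrutinib was already lower. H2AC20 had 0.804, 2.52 and 2.56 CPM with ibrutinib and 0.142, 0.781 and 1.32 CPM with both drugs (-1.50 ± 0.28 (SE), adjusted p = 0.00725). Histone genes occur as near-identical copies, and reads could have been split between them.

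**Figure D3:**
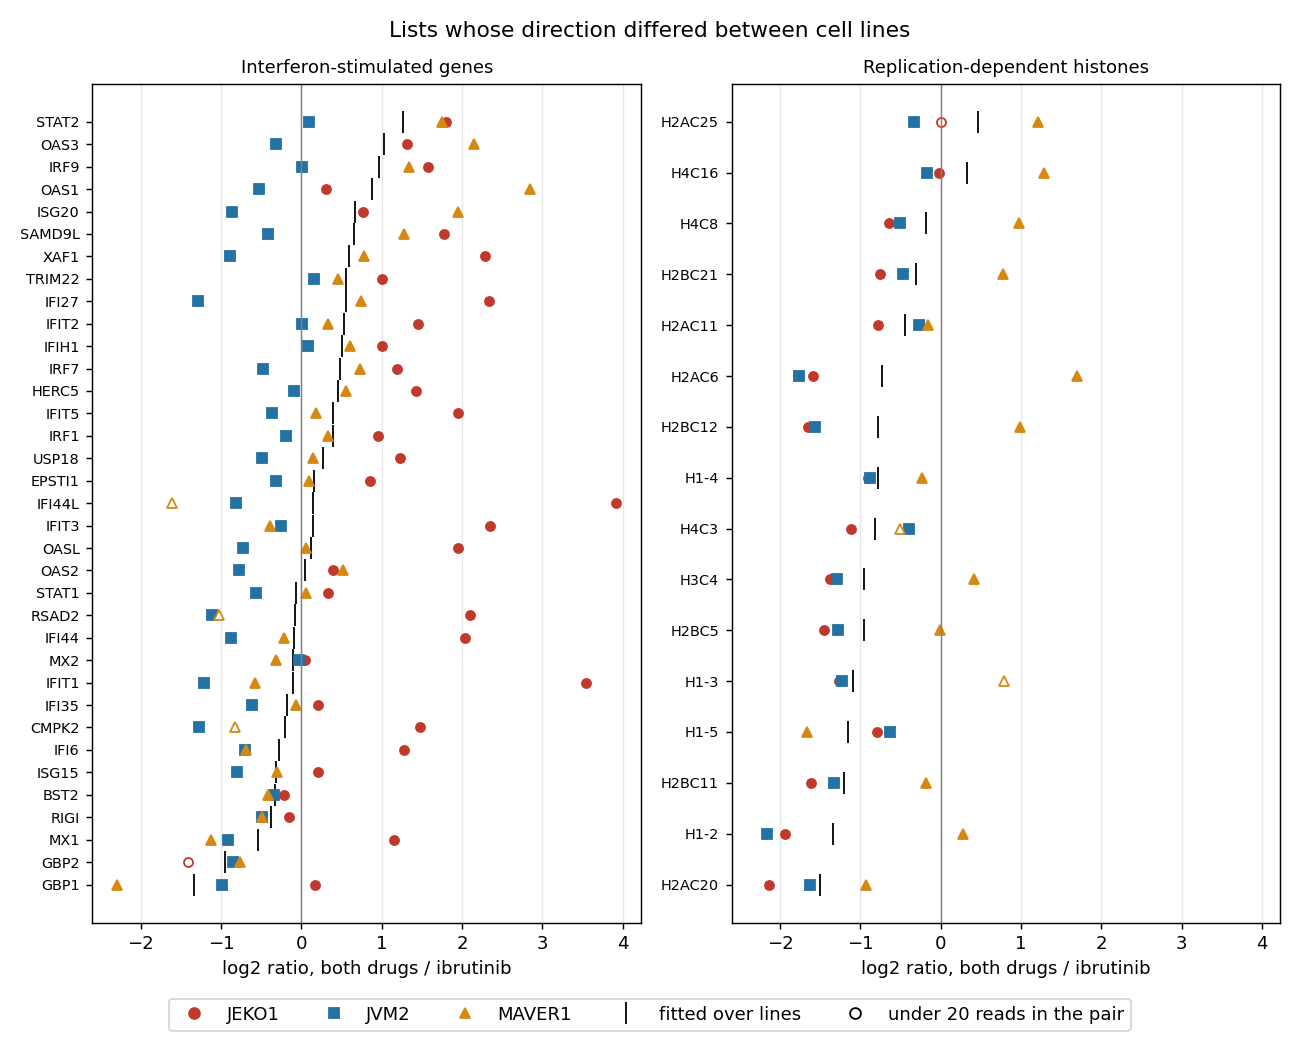
Log2 ratio of both drugs over ibrutinib for interferon-stimulated genes and replication-dependent histones, with 1 symbol per cell line, a black bar for the fitted value and open symbols under 20 reads in the pair. Most interferon-stimulated genes are above 0 in JEKO1 and below 0 in JVM2, and 9 of 16 histone genes are above 0 in MAVER1 against none in the other lines.

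The response was next compared with that to ironomycin without ibrutinib, taken from the remaining libraries, so that the ratios share no library. No gene had an ironomycin effect that differed with and without ibrutinib in edgeR's test (0 of 18674, 0.0%), and DESeq2 also gave 0, with 367 and 463 genes at an unadjusted p under 0.05. Of the 870 genes called, 849 had the same sign with ironomycin alone. The share with the same sign over all genes was not counted, so the 849 stand without a background. With ironomycin alone 40 genes were called (0.214%), 37 of them among the 870. Within a line the log2 ratios with and without ibrutinib correlated across 10911 genes at 0.854 in JEKO1, 0.785 in JVM2 and 0.881 in MAVER1. The spread of the ratios was wider with ibrutinib in each line, with an SD of 0.596 against 0.392 in JEKO1, 0.288 against 0.248 in JVM2 and 0.539 against 0.455 in MAVER1.

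By list, the PERK branch had a median of 1.34 with ibrutinib and 1.0 without it, and 18 of 19 fitted changes were larger with it. Mitosis genes had -0.62 and -0.30, and 0 of 42 lay higher with ibrutinib, and DNA replication genes had -0.51 and -0.25, with 0 of 44 higher. Mitochondrially encoded genes had -0.93 and -0.44, with 0 of 13 higher, where 9656 of all 18674 genes were. In JEKO1 their median log2 ratio was -2.47 with ibrutinib and -0.91 without. Cholesterol and fatty acid synthesis had 0.41 and 0.35, with 15 of 31 higher. None of these members passed the test of the difference. Among the genes with the smallest p in it and a mean of at least 1 log2 CPM were PDIA2 (difference 1.44), CCDC154 (1.10), the surface peptidase MME (-1.21) and SYTL1 (1.11), each with an adjusted p of 0.9999. MME had 43.0, 0.0839 and 36.5 CPM with ibrutinib and 14.8, 0 and 8.50 CPM with both drugs (-1.80 ± 0.20 (SE), adjusted p = 0.00237), against -0.64 in JEKO1 and -0.54 in MAVER1 without ibrutinib.

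**Figure D4:**
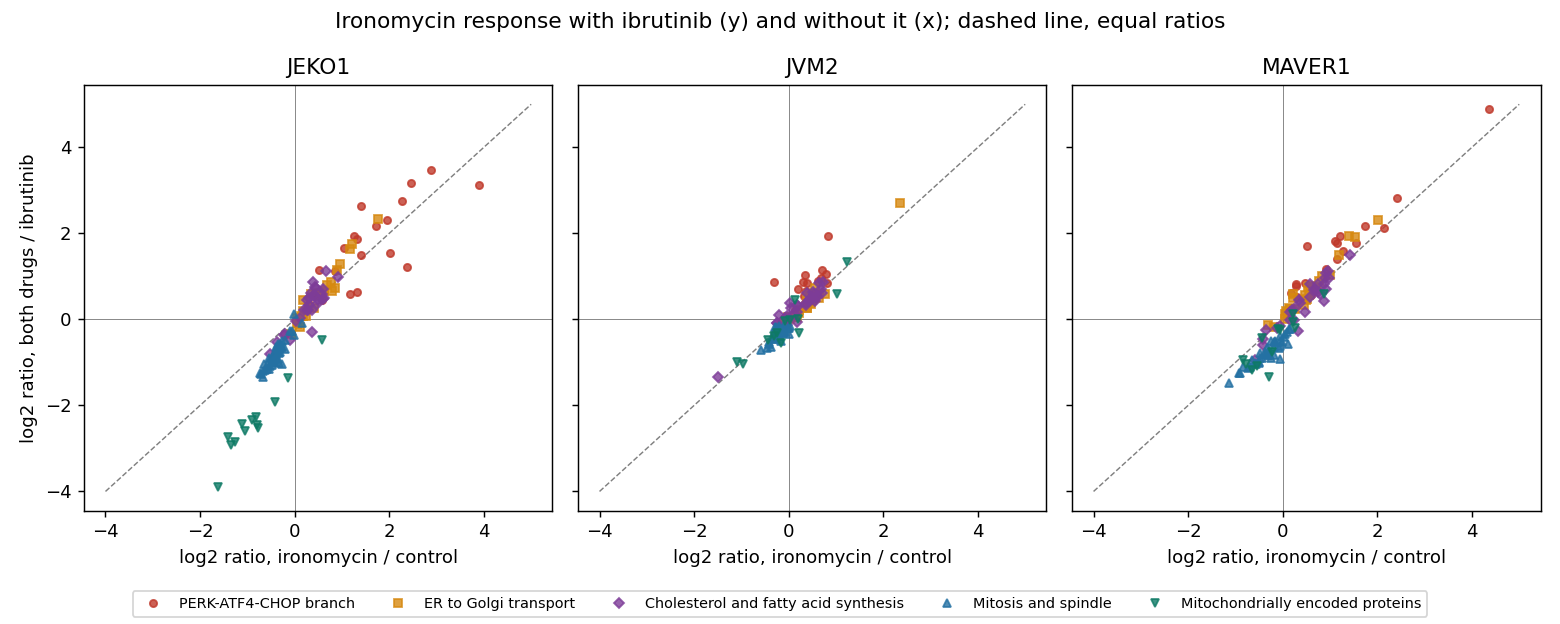
Log2 ratio of both drugs over ibrutinib (y axis) against that of ironomycin over control (x axis) for members of 5 gene lists with at least 20 reads in the pair, by cell line; the dashed line marks equal ratios. Of 42 mitosis genes 41 and all 13 mitochondrially encoded genes lie below the dashed line in JEKO1.

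The size of the response differed between lines for many genes. Using the pairs with and without ibrutinib as repeats of a line, the ironomycin effect differed between lines for 2488 of the 18674 genes (13.3%; 439 without JVM2 and 1025 without MAVER1), and for 181 of the 870 called. The genes in which JVM2 departed most from the nearer of the other lines were HID1, GDF15, ADGRG1, CSF1 and COL24A1. COL24A1, a fibrillar collagen, had 0.302, 9.43 and 0.781 CPM with ibrutinib and 4.14, 7.76 and 4.20 CPM with both drugs (1.45 ± 0.66 (SE), adjusted p = 0.135), higher with both drugs in JEKO1 and MAVER1 and not in JVM2, and the ironomycin effect on it differed between lines (adjusted p = 0.00143). For GDF15 the ironomycin effect also differed between lines (edgeR, adjusted p = 0.00179). Its log2 ratios were 1.87 in JVM2 and 5.36 in MAVER1, while JEKO1 went from 0 reads to 5.58 CPM and JVM2 had the highest level in both treatments. JVM2 and MAVER1 had received the same dose of ironomycin, and JEKO1 a lower one.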

How the data were processed

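RNA-seq was done on 12 libraries, 1 per cell line and treatment. The authors deposited whole-number read counts per gene, and the submitters' processing notes name STAR, DESeq2 and GRCh37 without versions. The counting tool and annotation are not given in the sources used here. The members and gene lists were chosen with earlier results of these data known.

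Counts were tested with edgeR 4.0.16 (R 4.3.3) by quasi-likelihood on all 12 libraries, with treatment and cell line as terms, TMM normalization, filterByExpr and Benjamini-Hochberg adjustment over the 18674 genes left. P-values of the treatment contrasts, and of the contrast with and without ibrutinib, measure the spread between lines. Those of the test by line do not. They rest on how the ironomycin effect of a line differed between its pairs with and without ibrutinib, which are not repeat cultures. Cell lines pair the samples: deviations from the group means had correlations of 0.932 to 0.957 in the 3 pairs of the same line and of -0.705 to -0.148 in the 12 other pairs. Subtracting the group mean itself pulls values between lines below 0, so their sign is no evidence of pairing. Ratios of single lines used a prior count of 2. Differences between lines, and with and without ibrutinib, were tested as interaction terms. DESeq2 1.42.0 and limma 3.58.1 were alternatives, besides other scalings, filters, fold minimums, GC and length offsets (mgcv 1.9.3) and leaving out each line. The fits were tested on simulated data.

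Genes were named by rule: the 12 largest rises and 12 largest falls with at least 20 reads per pair and 1 sign in all lines, up to 2 called members of each list per direction or the 2 of smallest p where none was called, genes the paper names, and the 5 leading genes of each interaction. Other members given as examples were chosen after their values were seen. Of the deposited columns 0 were of unknown sample. Promoters are from RefSeq. A few genes that the rule or lists include are not reported here.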

Additional observations from a re-analysis of the deposited data

Results flagged for a closer look

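The ironomycin effect differed between JEKO1, JVM2 and MAVER1 for 2488 of the 18674 genes tested, by a test of the difference itself in edgeR with the pairs with and without ibrutinib as repeats. It was flagged because the same contrast gave different effects in different cell lines. Since the ironomycin dose of JEKO1 and the ibrutinib dose of each line differed, dose and line cannot be told apart.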

How the results depend on the processing

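The 870 genes called became 161 in a fit to the 6 compared libraries only (159 of them among the 870), 314 with a filter at a mean of 1 log2 CPM, 4359 with no fold minimum and 1 to 1439 when 1 line was left out. Without the cell line as replicate block 0 genes were called (794 at an unadjusted p under 0.05), and the fold changes of CD22 and CCND2 were 0.038 and -0.099. DESeq2 gave 807 calls (735 shared), limma 935 (779 shared), RLE factors 836, library totals 1113, no filter 939 and GC and length offsets 887. Library totals moved the median of all genes from 0.05 to 0.15, and list medians nearer to 0 than this shift, such as those of BCR signalling and ferroptosis genes, changed sign. Genes whose ironomycin effect differed by line were 1232 with no filter and 439 to 3173 when 1 line was left out. In JVM2 alone the count of higher genes was 376 at 20 reads, and that of lower genes 140 at 20 reads and 518 at a prior count of 0.5. In MAVER1 alone the lower genes were 426 at 20 reads. The log2 fold change of MT1X ranged from -1.47 to 0.022 when 1 line was left out. The causes of these differences were not tested. The interaction with ibrutinib gave 0 calls in every alternative, with 7 to 872 genes at an unadjusted p under 0.05. With 3 lines and 1 library each, the spread within a line is unknown, and genes with few reads in a line carry no information on it.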
